A study of Mus musculus with 16 samples.

Results

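Splicing factor and hnRNP genes are described here in kidneys of mice labelled MFP2-/-. The members are the 69 genes, measured by 109 of the 20355 probes, whose single platform symbol begins with Hnrnp (or the older Hnrp), Srsf (or Sfrs), Sf3a, Sf3b, Snrp, U2af, Prpf, or Rbm followed by a digit or X; Rbm3 was left out by the rule. They were chosen by name, with earlier results of these data known, and no measured value entered the rule. They comprise 14 hnRNP genes, 9 SR genes, 2 U2AF genes, 6 SF3 genes, 8 snRNP genes, 11 Prpf genes and 19 Rbm genes.

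Pre-mRNA splicing is carried out by the spliceosome, which is built from small nuclear ribonucleoproteins (snRNPs) and many further proteins. U2AF marks the 3′ splice site, SF3a and SF3b hold the U2 snRNP at the branch point, and proteins of the Prpf group work in and around the U4/U6.U5 tri-snRNP and in catalytic activation. SR proteins mostly favour the use of nearby exons, hnRNP proteins coat the pre-mRNA and often oppose them, and the Rbm proteins are a mixed group named for an RNA recognition motif. Most of these genes are expressed in nearly every cell, the kidney's included.

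Each mutant was a 15 weeks old male, and 4 such mice were studied, each on 4 two-channel cDNA arrays, with 2 repeats in each of 2 dye orientations. The other channel of all 16 arrays held 1 pool of 5 wild-type males of the same age, labelled as the Swiss strain SWR/Ola Hsd. The mutants carry no strain label beyond MFP2-/-, so strain background and genotype cannot be told apart, and the pool is 1 control sample that gives no spread among wild-type mice. MFP2 is the peroxisomal multifunctional protein 2, an enzyme of peroxisomal beta-oxidation encoded by Hsd17b4. All values are log2 ratios, taken as mutant over pool because the labels list the mutant as channel 1 on every array; the direction is not stated, and every rank and share below rests on it. Across all probes, arrays of opposite dye orientation had a median rank correlation of -0.16 within a mouse and -0.10 between mice, against 0.34 and 0.18 in the same orientation. The main results of the members are therefore also given with the values read as Cy5 over Cy3. Under that reading limma called 12 of all 16140 rows and 0 members. Cell markers and gene lists outside the members were read as mutant over pool only. In whole tissue, fewer cells of a type and less RNA per cell cannot be told apart. A ratio against a pool gives no level, so the members cannot be ordered by abundance and the labelled tissue could not be checked against its defining markers.

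The arrays held 19737 to 20228 values each. The 2 probes of Hsd17b4 disagreed, with mean log2 ratios of -0.91 ± 0.80 and 0.43 ± 0.34 (SD, n = 4), and which part of the transcript each probe covers was not given in the sources used here; they do not check the genotype. Over all 16140 rows, limma called 0 rows after Benjamini-Hochberg adjustment at 0.05 (0%), with a smallest adjusted p of 0.327, while 1459 rows had an unadjusted p under 0.05.

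The promoters of these genes are shown first, for a short sequence carried by a larger share of them than of all the array's genes. RefSeq promoters of build GRCm38.p6, from 250 bases before the transcript start to 50 after it, were matched for 60 members and 7948 genes of the array. These 7948 genes include the members, and a gene was counted if any of its promoters held the letters searched. The letters CCGGAA, the core recognised by ETS transcription factors, were found on either strand in 32 of 60 members (53.3%). They were found in 28.1% of the array's genes and in 16.7% of all 27025 genes with a promoter in the table. The median GC content of the window was 60% both in the members and in the array's genes, and 52.7% in all genes. The following stretches of 150 bases before the start are those of an SF3b protein, a tri-snRNP protein and a pair of Rbm proteins, with capitals marking each ETS core on the gene's strand (CCGGAA) or its reverse complement (TTCCGG). The motif was chosen for display after its share was seen. The genes were taken in order of limma's unadjusted p, with a single chromosome left out. They came from members whose stretch held the core and lay in no annotated gene. Each stretch thus holds the core by choice.
Sf3b6, chr12:4817458-4817607, plus strand: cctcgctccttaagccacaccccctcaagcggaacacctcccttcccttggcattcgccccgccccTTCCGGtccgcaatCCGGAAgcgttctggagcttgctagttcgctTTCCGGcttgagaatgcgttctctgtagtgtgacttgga
Prpf6, chr2:181601169-181601318, plus strand: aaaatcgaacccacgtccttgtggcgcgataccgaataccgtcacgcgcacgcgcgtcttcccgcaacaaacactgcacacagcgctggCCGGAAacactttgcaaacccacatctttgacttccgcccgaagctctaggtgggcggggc
Rbm19, chr5:120116363-120116512, plus strand: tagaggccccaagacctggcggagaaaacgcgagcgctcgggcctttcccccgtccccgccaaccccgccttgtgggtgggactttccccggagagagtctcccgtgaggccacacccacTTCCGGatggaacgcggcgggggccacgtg
Rbm42, chr7:30650229-30650378, minus strand: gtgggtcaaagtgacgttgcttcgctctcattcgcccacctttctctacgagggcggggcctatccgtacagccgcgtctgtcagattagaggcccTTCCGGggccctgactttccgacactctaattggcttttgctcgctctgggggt

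Sf3b6, the subunit of SF3b that contacts the branch point, had 3 ETS cores in its stretch, and the other three genes had 1 each. By group, the core was present in 5 of 5 matched SF3 genes, 7 of 10 Prpf genes, 4 of 6 snRNP genes, 5 of 9 SR genes, 5 of 12 hnRNP genes, 6 of 16 Rbm genes and 0 of 2 U2AF genes. Other searches, on both strands, gave members' shares nearer to those of the array. CCAAT was in 31 of 60 members (51.7%, against 42.7% of the array's genes), and TATAAA was in 9 (15%, against 9.76%). The heat shock element GAANNTTC was in 5 (8.33%, against 7.23%), the CRE palindrome TGACGTCA in 1 (1.67%, against 3.23%), and the palindromic NRF1 consensus in 1 (1.67%, against 2.03%). A match to these letters is a description and not a bound site. The median log2 ratio was 0.05 over the 32 members with the core, 21 of which were above 0, and 0.03 over the 28 without it, 17 of which were above 0. Members with and without the core thus spanned much the same values, from -0.23 to 0.37 with it and from -0.24 to 0.50 without.

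Across all members, the ratios lay close to 0. Mean log2 ratios ran from -0.24 for Rbm14 to 0.50 for Rbm12, which is 0.849 to 1.415 as a fold, and 40 of 69 members lay within 0.1 of 0. Read as Cy5 over Cy3, the extremes were other genes, from -0.54 for Snrpb2 to 0.27 for Hnrnpk, with Rbm14 at -0.05 and Rbm12 at -0.24. No member passed limma's test of the mean over mice against 0, where the smallest adjusted p among members was 0.548 with Benjamini-Hochberg adjustment over all rows. Without adjustment, 4 members above 0 and 2 below it had a p under 0.05, that is 6 of 69 beside 9.04% of all rows (5.83% above 0 and 3.21% below). Left out in turn, mice 1, 3 and 4 each left 1 such member below 0 (1.45%), beside 3.27%, 2.61% and 1.82% of all rows. Leaving out mouse 2 left 0 below, beside 1.92% of all rows, and 3 above (4.35%), beside 4.03%. All 6 depended on the direction: read as Cy5 over Cy3, U2af1l4 was at -0.24, Srsf5 at 0.01, Srsf6 at -0.01, Rbm8a at -0.47, Rbm14 at -0.05 and Srsf1 at 0.10. The 95% confidence interval of the mean lay within 0.5 of 0 for 63 members (91.3%), as it did for 87.4% of all rows.

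More members lay above 0 than below, 44 against 25 (63.8%), beside 50.1% of all rows and 54.1% of the 9846 rows with a gene name. The median log2 ratio of the members was 0.04, against 0.0004 over all rows and 0.01 over named genes. By mouse, from 1 to 4, it was 0.04, 0.11, 0.02 and 0.04, so it was above 0 in each mouse and highest in mouse 2. On single arrays the median of the members' probes lay between -0.07 and 0.13. It was above 0 on 12 of 16 arrays, namely all 8 with the mutant in Cy5 and 4 of 8 with the mutant in Cy3. Read as Cy5 over Cy3 instead, the members' median was 0.01, with 36 of 69 members above 0, beside 45.6% of all rows. The excess over all rows was thus smaller in that reading. Of the 67 members measured in all 4 mice, 9 were above 0 in every mouse, beside 10% of all such rows, and 6 were below 0 in every mouse, beside 9.42%. Both counts are near the background.

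**Figure D1:**
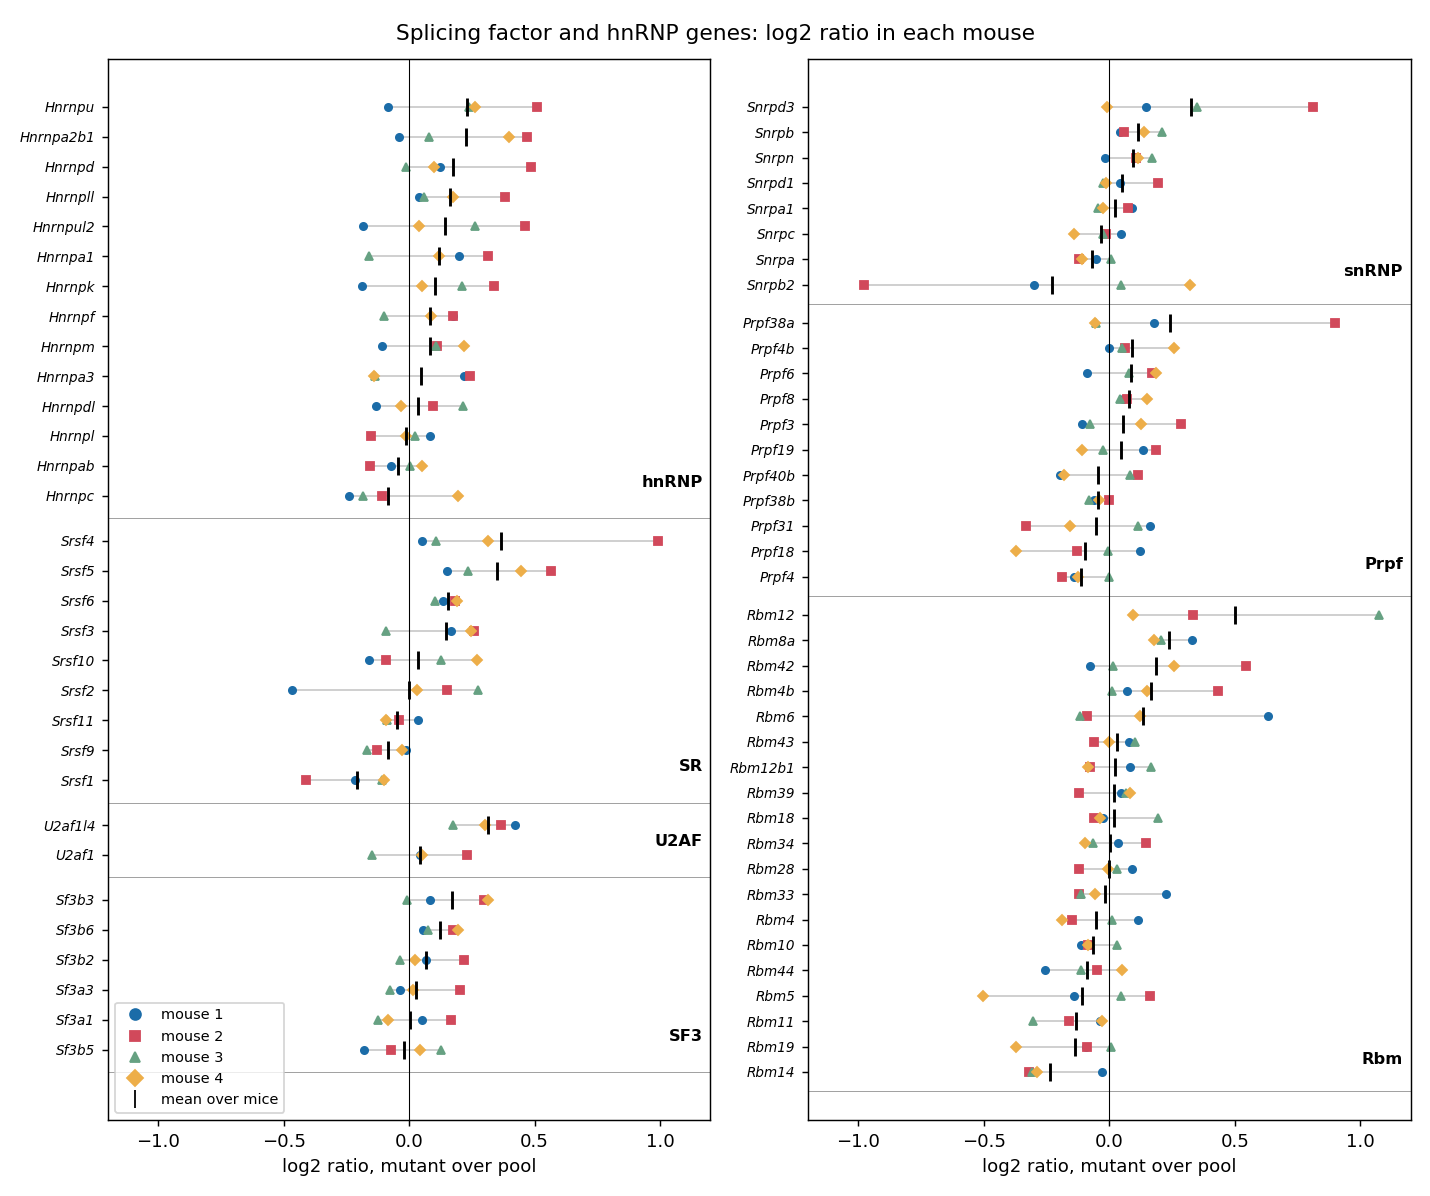
Log2 ratio of mutant over pool (horizontal axis) for each of the 69 members in each of the 4 mice (coloured symbols), with the mean over mice as a black bar, grouped by family and ordered by the mean. Most means lie within 0.1 of 0, and the hnRNP rows show mouse 2 far to the right in many genes.

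At the 3′ splice site, U2AF is a dimer whose small subunit reads the AG dinucleotide. U2af1l4, a paralog of that small subunit, gave log2 ratios of 0.42, 0.37, 0.18 and 0.30 in mice 1 to 4. All 4 mice were above the pool, with a mean of 0.32 ± 0.11 (SD, n = 4), and this was the smallest unadjusted p among the members, 0.00297 in limma. With limma's adjustment over all rows the adjusted p was 0.548. Its arrays were less even than its mouse values: the mean was 0.08 with the mutant in Cy5 and 0.56 with the mutant in Cy3, the lowest array had -0.78 and the highest 1.23. The dye difference did not pass limma's test either (adjusted p = 0.247). U2af1, the small subunit itself, had 0.04, 0.23, -0.15 and 0.05 in mice 1 to 4, with a mean of 0.04 ± 0.15 (SD, n = 4), so its mice lay on both sides of 0.

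Among the 9 SR genes, 5 were above 0 and 4 below, with a median of 0.04. Srsf5, an SR protein known for rapid transcript changes after insulin and growth stimuli, gave log2 ratios of 0.15, 0.56, 0.23 and 0.45 in mice 1 to 4, a mean of 0.35 ± 0.19 (SD, n = 4). Its 2 probes gave 0.39 and 0.31, and the orientations gave 0.35 (mutant in Cy5) and 0.34 (mutant in Cy3). Of its 16 arrays, those in mice 2 and 4 were all above 0, while each of mice 1 and 3 had arrays on both sides. Srsf5 was therefore the member with a ratio beyond 0.3 whose probes and orientations differed least, and still its unadjusted p of 0.00698 became an adjusted p of 0.548 in limma.

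Srsf6, which acts on exon choice in many transcripts, had the narrowest spread of the SR genes above 0, with 0.14, 0.18, 0.10 and 0.19 in mice 1 to 4 and a mean of 0.15 ± 0.04 (SD, n = 4). Its single arrays ranged from -0.16 to 0.56, so the close mouse values are means of arrays that lay on both sides of 0. Srsf4 had 0.05, 0.99, 0.11 and 0.31, a mean of 0.37 ± 0.43 (SD, n = 4). Mouse 2 stood far above the other mice, and the orientations opposed each other, with -0.12 in Cy5 and 0.85 in Cy3 (limma adjusted p of the dye term = 0.0528). Srsf3, one of the smallest SR proteins, had 0.17, 0.26, -0.09 and 0.25, and only mouse 3 was below 0.

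Srsf1, the founding SR protein (also called ASF/SF2), was below the pool in every mouse, at -0.21, -0.41, -0.11 and -0.10, with a mean of -0.21 ± 0.14 (SD, n = 4). Its 2 probes gave -0.19 and -0.23, but the first was above 0 in mouse 3 (0.11). Srsf9, a close relative of Srsf1, had a mean of -0.08 ± 0.08 (SD, n = 4) from -0.01, -0.13, -0.17 and -0.03, and it had the smallest spread between repeat arrays of all members, a repeat SD of 0.14. Unadjusted p-values were 0.0308 for Srsf1 and 0.208 for Srsf9 in limma. Srsf2, which helps define 3′ splice sites, averaged -0.001 ± 0.32 (SD, n = 4), with -0.47 in mouse 1 against 0.15, 0.28 and 0.03 in the others. Srsf10, known as a splicing repressor when dephosphorylated, split by mouse: -0.16 and -0.09 in mice 1 and 2, 0.13 and 0.27 in mice 3 and 4. The remaining SR gene, Srsf11, had a mean of -0.05 ± 0.06 (SD, n = 4).

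**Figure D2:**
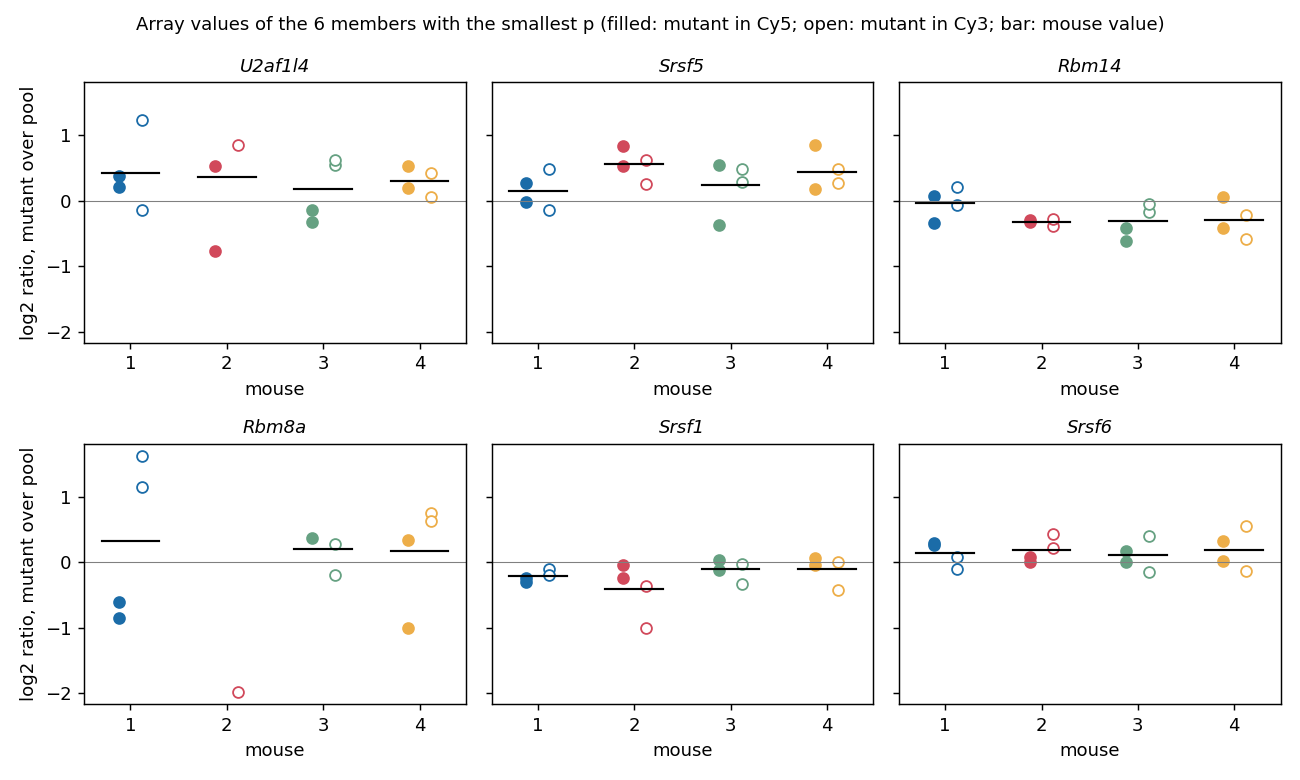
Log2 ratio on every array (vertical axis) for the 6 members with an unadjusted p under 0.05, by mouse (horizontal axis), with filled points for the mutant in Cy5, open points for the mutant in Cy3 and a bar for the mouse value. Srsf5 and Rbm14 have orientations that overlap in most mice, while in Rbm8a the orientations of mouse 1 lie on opposite sides of 0.

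The hnRNP genes had a median of 0.09, with 11 of 14 above 0. Read as Cy5 over Cy3 the median was -0.004. There 7 of 14 were above 0, beside 45.6% of all rows, so the size of this excess rests on the direction taken. The same 45.6% stands beside the other families. In that reading 5 of 9 SR genes, 4 of 6 SF3 genes, 4 of 8 snRNP genes, 7 of 11 Prpf genes, 8 of 19 Rbm genes and 1 of 2 U2AF genes were above 0. The median of 0.09 differed from mouse to mouse, with -0.06, 0.28, 0.04 and 0.09 in mice 1 to 4, and was highest in mouse 2. In 8 of the 14 genes (57.1%) mouse 2 had the highest value, beside 37.7% of all members and 30.6% of all rows. The arrays of mouse 2 also held the fewest values and the most floor spots, and whether this bears on its ratios was not tested. No hnRNP gene had an unadjusted p under 0.05 for the mean over mice.

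Hnrnpa2b1, which binds nascent RNA and sorts RNAs for transport, gave log2 ratios of -0.04, 0.47, 0.08 and 0.40 in mice 1 to 4. Mice 2 and 4 were high, mice 1 and 3 were near 0, and the mean was 0.23 ± 0.25 (SD, n = 4). Its arrays repeated well, with a repeat SD of 0.14: the 4 arrays of mouse 2 ran from 0.25 to 0.56 and those of mouse 4 from 0.17 to 0.66, against -0.28 to 0.22 in mouse 1 and -0.03 to 0.19 in mouse 3. It had the smallest p between mice among the members, 0.00398, and a limma F-test adjusted p of 0.171.

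Hnrnpu, also known as the scaffold attachment factor SAF-A, had -0.08, 0.51, 0.24 and 0.26, a mean of 0.23 ± 0.24 (SD, n = 4). Its 3 probes all averaged above 0, at 0.10, 0.39 and 0.21, although the first of them, probe 9796, had a repeat SD of 1.54. Hnrnpll, known for the alternative splicing of CD45 in lymphocytes, was above 0 in every mouse, at 0.04, 0.38, 0.06 and 0.17. Of its probes, 9329 was above 0 in every mouse, but 1931 had -0.15 in mouse 1 and -0.006 in mouse 3. Hnrnpd (AUF1), which binds AU-rich elements and takes part in mRNA decay, had 0.12, 0.49, -0.01 and 0.10. In these genes, too, mouse 2 had the highest value.

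Hnrnpa1, an abundant protein that opposes SR proteins at many exons, had 0.20, 0.32, -0.16 and 0.12, and mouse 3 was the low one. Hnrnpk, which binds C-rich RNA, had -0.19, 0.34, 0.21 and 0.05. Hnrnpk was also the clearer of the 2 members called for dye orientation, with 0.38 (mutant in Cy5) and -0.17 (mutant in Cy3) (limma adjusted p = 0.0226). Hnrnpc, which binds U-rich tracts and masks cryptic exons, had -0.24, -0.11, -0.18 and 0.19, a mean of -0.08 ± 0.19 (SD, n = 4), with only mouse 4 above 0. The unnamed hnRNP genes had means between -0.01 and 0.14. Probes of Hnrnpa1 may also bind transcripts of its many processed pseudogenes and of close hnRNP relatives, since these arrays carry cDNA probes whose exact sequences are not used here.

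**Figure D3:**
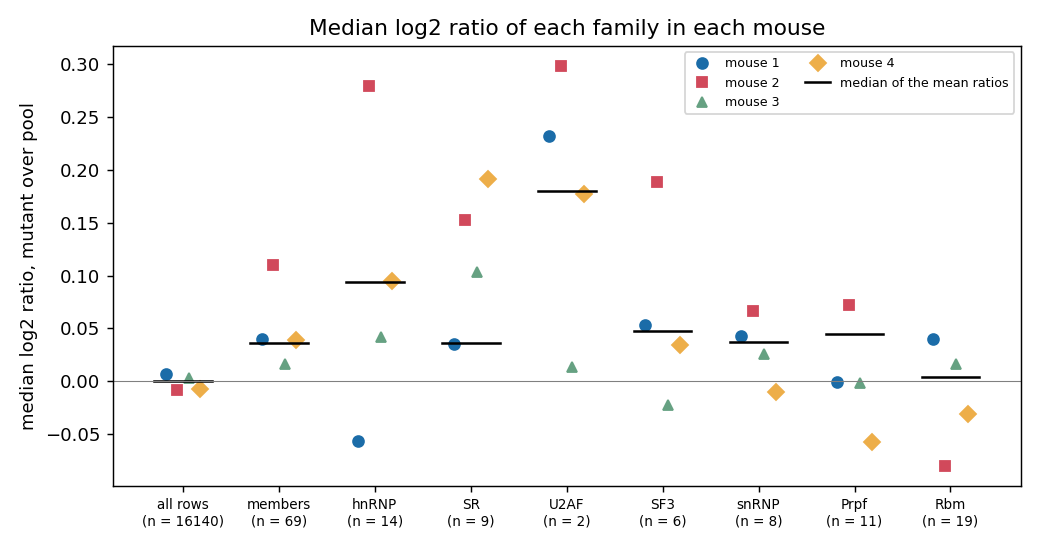
Median log2 ratio (vertical axis) of each family in each of the 4 mice (coloured symbols), beside all 16140 rows tested and all 69 members; the black line is the median of the mean ratios and n is the number of genes or rows. The hnRNP median runs from -0.06 in mouse 1 to 0.28 in mouse 2, while all rows stay near 0 in every mouse.

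Differences between the mice were tested on all arrays with limma's F-test with a dye term, which uses the spread between arrays of 1 mouse and so sets single animals, not conditions, apart. Of the 67 members tested, 0 passed at an adjusted p of 0.05, beside 0.189% of the 15856 rows tested. Without adjustment 7 members had a p under 0.05, beside 11.2% of rows. These 7 were Hnrnpa2b1, Rbm42, Hnrnpll, Srsf10, Hnrnpa1, Hnrnpk and Hnrnpd, of which 5 are hnRNP genes, and their limma F-test adjusted p-values ran from 0.171 to 0.433. Rbm42, which binds hnRNP K, had -0.08, 0.55, 0.02 and 0.26 in mice 1 to 4, the same order of mice as Hnrnpa2b1. Read as Cy5 over Cy3, 1 member had an unadjusted p under 0.05 between mice, beside 6.98% of rows. The SF3 median was likewise highest in mouse 2, at 0.19, but the Rbm median was lowest there, at -0.08.

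Markers of the proximal tubule, the most abundant epithelium of the kidney cortex, showed a like order of mice. Of the 14 listed, 10 were measured and 8 were above 0, and their median in mice 1 to 4 was -0.04, 0.31, 0.10 and 0.25. The 10 markers included Napsa at 0.31 ± 0.11 and Cubn at 0.24 ± 0.10, and on the other side Slc34a1 at -0.20 ± 0.09 (SD, n = 4). Of 11 red cell markers 3 were measured, all below 0 with a median of -0.07, and of 20 leukocyte markers 13 were measured, 3 of them above 0, with a median of -0.04 and the highest value in Was at 1.10 ± 0.43 (SD, n = 4). None of these markers passed limma's adjusted test of the mean, and 1 proximal tubule marker passed the F-test between mice. Ratios against a pool give no summed level, and the part of cell makeup in the hnRNP values was not tested. The marker values were read as mutant over pool only.

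The SF3 genes build the part of the U2 snRNP that grips the branch point. Of these 6 genes 5 were above 0, with a median of 0.05. Sf3b3, a large scaffold subunit of SF3b, had a mean of 0.17 ± 0.16 (SD, n = 4), from 0.08, 0.30, -0.01 and 0.31 in mice 1 to 4, but was at -0.14 with the values read as Cy5 over Cy3. Sf3b6, named here for its promoter, was above 0 in every mouse, with 0.05, 0.17, 0.08 and 0.20 and a mean of 0.13 ± 0.07 (SD, n = 4). Its 2 probes gave 0.25 and -0.01, so 1 of them lay at 0. Sf3b5, the smallest SF3b subunit, had a mean of -0.02 ± 0.13 (SD, n = 4). The other SF3 genes, Sf3a1, Sf3a3 and Sf3b2, had means from 0.003 to 0.07 with mice on both sides of 0. None of the 6 had an unadjusted p under 0.05.

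The snRNP genes had a median of 0.04, with 5 of 8 above 0. Snrpb, which encodes the core proteins SmB and SmB', was above 0 in all mice, at 0.04, 0.06, 0.21 and 0.14, with a mean of 0.11 ± 0.08 (SD, n = 4). Snrpd3, which encodes SmD3, had a mean of 0.32 ± 0.36 (SD, n = 4), but this came from probe 5261 with 0.63 and a repeat SD of 1.2. The quieter probe 16356 had 0.02 with a repeat SD of 0.20. Snrpa, the A protein of the U1 snRNP, had -0.05, -0.12, 0.01 and -0.11. The means of its 3 probes over mice differed by only 0.04, but in mouse 1 the probes gave -0.20, 0.19 and -0.15. Its orientations opposed each other, with 0.09 in Cy5 and -0.23 in Cy3 (limma adjusted p of the dye term = 0.068). Snrpa was above 0 with values read as Cy5 over Cy3. Snrpb2, the B'' protein of the U2 snRNP, had widely spread mouse values, at -0.30, -0.98, 0.05 and 0.32. Its mean of -0.23 ± 0.56 (SD, n = 4) came from orientations of -0.76 and 0.31 and a repeat SD of 1.05. It so gives no direction as mutant over pool, and was at -0.54 read as Cy5 over Cy3. The unnamed snRNP genes had means between -0.03 and 0.09.

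Of the 11 Prpf genes 6 were above 0, with a median of 0.05. Prpf8, the scaffold at the catalytic centre, had 0.05, 0.07, 0.04 and 0.15 in mice 1 to 4 and a mean of 0.08 ± 0.05 (SD, n = 4). These close mouse values average unlike arrays, with 0.22 (mutant in Cy5) and -0.06 (mutant in Cy3) and single arrays from -0.45 to 0.51. Prpf19, the ubiquitin ligase of the complex named after it, had 0.13, 0.18, -0.03 and -0.11, with a mean of 0.05 ± 0.14 (SD, n = 4). Prpf4, a U4/U6 snRNP protein, had -0.14, -0.19, -0.001 and -0.12, below 0 in every mouse. The means of its 2 probes over mice differed by only 0.01, but in mouse 3 the probes gave 0.15 and -0.15. Prpf4 was the other member called for dye orientation, with 0.11 in Cy5 and -0.34 in Cy3 (limma adjusted p = 0.0292). Its sign thus depends on the orientation read. The unnamed Prpf genes had means between -0.10 and 0.24.

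The Rbm genes were centred on 0, with 10 above, 9 below and a median of 0.004. Rbm14, a coactivator and paraspeckle protein, had a mean of -0.24 ± 0.14 (SD, n = 4), from -0.03, -0.32, -0.31 and -0.29 in mice 1 to 4. Mice 2 to 4 lay close together and mouse 1 near 0. The orientations gave -0.28 and -0.19, and its 4 arrays in mouse 2 lay between -0.38 and -0.27. Its unadjusted p was 0.0177 and its limma adjusted p 0.548.

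Rbm8a (Y14), a core protein of the exon junction complex, had 0.33 in mouse 1, 0.20 in mouse 3 and 0.18 in mouse 4, and no value in both orientations in mouse 2. Its mean of 0.24 ± 0.08 (SD, n = 3) hides arrays from -1.01 to 1.63 in those mice: in mouse 1 the arrays with the mutant in Cy5 had -0.85 and -0.61, and those with it in Cy3 had 1.63 and 1.15. The 1 array of mouse 2 with a value had -1.99. Rbm12 had a mean of 0.50 ± 0.51 (SD, n = 3), with 0.33, 1.07 and 0.09 in mice 2 to 4, and a repeat SD of 1.05. With the values taken as mutant over pool, both genes were measured too unevenly for a direction. Read as Cy5 over Cy3, Rbm8a was at -0.47 and Rbm12 at -0.24.

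Rbm5 and Rbm10 encode related splicing regulators that act on apoptosis genes. Rbm5 had means of 0.06 and -0.38 at its 2 probes and orientations of -0.61 and 0.13 (limma adjusted p of the dye term = 0.0517). Rbm10 had -0.11, -0.08, 0.03 and -0.09, with a mean of -0.06 ± 0.06 (SD, n = 4) and a repeat SD of 0.17. Rbm11 was below 0 in every mouse, with -0.04, -0.16, -0.31 and -0.03. Rbm19, which takes part in ribosome biogenesis, had -0.37 in mouse 4 against -0.09, -0.09 and 0.01 in the others, and Rbm44, known from male germ cells, had a mean of -0.09 ± 0.13 (SD, n = 4). For Rbm4 and Rbm4b, near-identical paralogs whose transcripts may share a probe, no separate reading is given, and Snrpb and Snrpn may likewise share signal. The 10 Rbm genes not described singly had means between -0.05 and 0.17, with Rbm6 the most uneven of them, at 0.63 in mouse 1 against -0.09, -0.12 and 0.12 in the others.

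Repeats, probes and dye orientations show how far separate measurements of a member differed. All 109 member probes passed the filter on missing values, 99 of them had a value on all 16 arrays and 4 had a spot at the floor. Their median repeat SD was 0.25, against 0.26 for all probes kept. Of the 29 members with at least 2 probes, 13 had probes on both sides of 0, and the median gap between probes was 0.14, close to the 0.13 found over the 2968 genes of the array with at least 2 probes. The gaps were widest in Snrpd3 (0.61), Rbm5 (0.44), Hnrnpf (0.38) and Hnrnpab (0.29).

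Hnrnpf, which binds G-rich runs, had a pair of quiet probes on opposite sides of 0. Probe 7387 had a mean of -0.11 ± 0.10 and probe 8892 one of 0.27 ± 0.26 (SD, n = 4), with repeat SDs of 0.21 and 0.14. Hnrnpab, which shuttles with mRNA, had 0.10 at probe 3365 and -0.19 at probe 5271. The transcripts that each probe covers were not given in the sources used here.

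**Figure D4:**
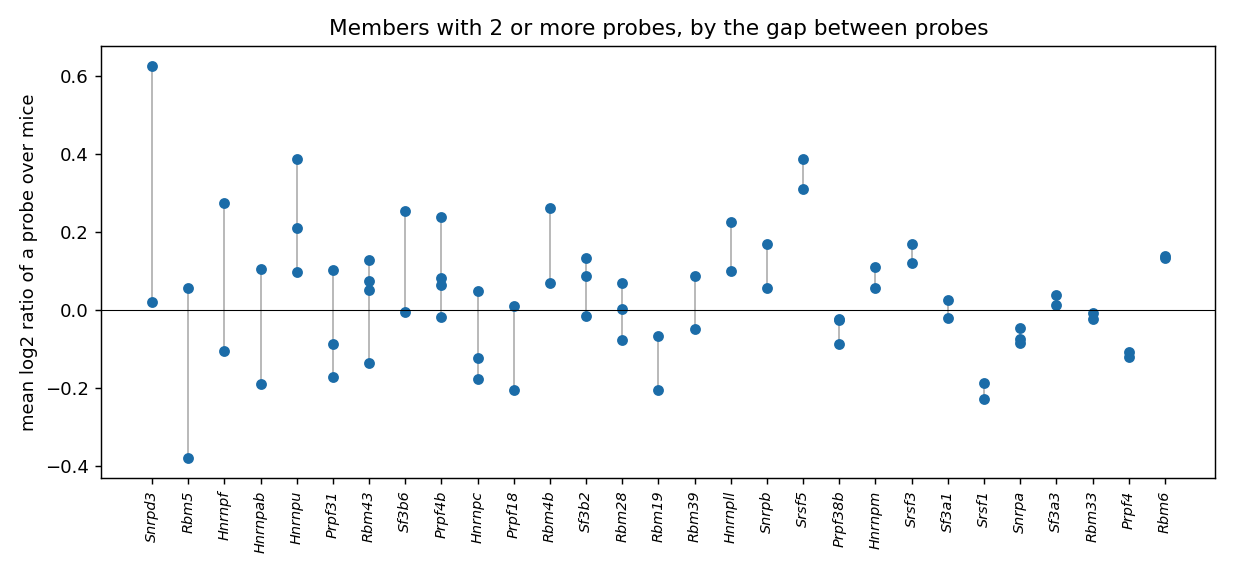
Mean log2 ratio over mice (vertical axis) of every probe of the 29 members with at least 2 probes, ordered by the gap between probes; each point is 1 probe and lines join the probes of a gene. The gap falls from 0.61 in Snrpd3 to 0.006 in Rbm6, and 13 genes have probes on both sides of 0.

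Many members read differently in the 2 dye orientations. If the values are Cy5 over Cy3, the dye term holds the difference between mutant and pool. Which of the 2 it shows was not tested. The mean with the mutant in Cy5 and that with the mutant in Cy3 had the same sign in 31 members and opposite signs in 38, so 44.9% had the same sign, beside 40.2% of all rows. The median absolute difference between orientations was 0.16 in the members and 0.20 over all rows. In limma's test of the dye term 2 of 67 members were called, Hnrnpk and Prpf4, beside 8.4% of rows. Without adjustment 16 members had a p under 0.05, beside 29.9% of rows. The count of called members depends on the mice used: it was 10 of 68 (14.7%) without mouse 2, beside 16.9% of rows, and 0 without any other mouse, beside 0.277% to 0.473% of rows.

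**Figure D5:**
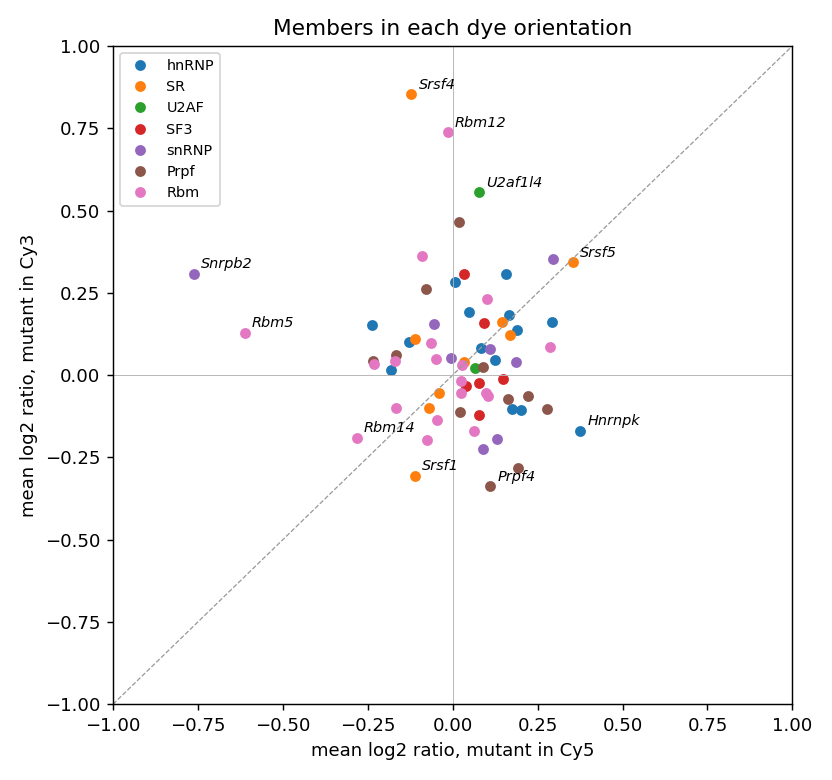
Mean log2 ratio of each of the 69 members with the mutant in Cy5 (horizontal axis) against the mutant in Cy3 (vertical axis), coloured by family; the dashed line marks equal values. Srsf5 lies on the line at 0.35 and 0.34, while Srsf4, Snrpb2 and Hnrnpk lie in quadrants of opposite sign.

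Genes of the same pathway outside these families were read from lists of names. The Cy5 over Cy3 reading was not run for these lists, so their shares and ratios rest on the direction taken. Of 53 other spliceosome genes 38 were measured, 27 above 0 and 11 below, with a median of 0.06. The share above 0 was 71.1%, beside 50.1% of all rows and 54.1% of rows with a gene name. In limma 0 were called, and 5 above 0 and 2 below it had an unadjusted p under 0.05, beside 5.83% and 3.21% of all rows. Eif4a3, the helicase that anchors the exon junction complex and partner of Rbm8a there, had 1.05, 0.67, 0.24 and 0.30 in mice 1 to 4, a mean of 0.57 ± 0.38 (SD, n = 4). Ddx5, an RNA helicase, had a mean of 0.24 ± 0.13 (SD, n = 4). On the lower side were Thoc1, of the THO export complex, at -0.30 ± 0.23 (SD, n = 3) and Isy1, of the catalytic spliceosome, at -0.21 ± 0.18 (SD, n = 4).

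Of 49 other regulators of splicing 41 were measured, 25 above 0 (61%) and 16 below, with a median of 0.02, and 0 were called in limma. Here 2 genes above 0 and 1 below it had an unadjusted p under 0.05, beside the same shares of all rows. Pcbp2, which binds C-rich RNA like Hnrnpk, had a mean of 0.27 ± 0.16, and Srrm1, an SR-related coactivator, had 0.21 ± 0.11 (SD, n = 4). Celf2, a CUG-binding regulator, was below 0 in every mouse, with -0.50, -0.29, -0.40 and -0.24 and a mean of -0.36 ± 0.11 (SD, n = 4). Tardbp (TDP-43) had -0.21 ± 0.23 (SD, n = 4), with mouse 4 near 0. Each of these had a limma adjusted p of at least 0.548. Since 0 of all 16140 rows passed the threshold, the lack of calls in these lists says nothing particular about them.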

How the data were processed

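Kidney RNA of 4 mice was measured on 16 two-channel cDNA arrays against 1 pool. The deposited values were read as log2 ratios, 1 column per array; how the authors normalised them, their log base and their direction were not given in the sources used here. Base 2 was taken, and was not tested. No intensities were used, so signal over background is unknown, and precision is limited by the number of arrays. Of 20355 probes, 14030 had 1 platform symbol, 5 several and 6320 none, and 13994 were updated through RefSeq.

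Values beyond 10 in absolute size (spots at a floor) were set missing, and each array was centred on its median. Each mouse's value was the mean within each dye orientation and then the mean of both, for probes with both orientations in at least 3 mice; probes of a symbol were averaged. The arrays of 1 mouse share RNA, so n is the number of mice. The mean was tested against 0 with limma 3.58.1 (R 4.3.3, lmFit, eBayes, two-sided) and Benjamini-Hochberg adjustment over 16140 rows at 0.05, and mice and dye with limma on all arrays. One mouse carries differing numbers in its title and source name but 1 mouse ID, and was kept as 1 animal. A repeat SD is the SD between repeat arrays of 1 mouse in 1 orientation.

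Members, gene lists and the naming rule were chosen with earlier results of these data known. Named members are the 10 with the smallest p on each side of 0, the 8 between mice, the 4 for dye, the 4 largest probe gaps, the 6 smallest repeat SDs, and fixed well-known factors, of which Sf3b1, U2af2, Snrnp70 and Rbmx were not analysed here. A planned count of protein sequence features was not run. Alternatives covered centring, scaling, probes, filters, floor spots, medians, a random block (statmod 1.5.0), single orientations and repeats, the Cy5 over Cy3 reading, an unmoderated test and leaving out each mouse. The tests were checked on simulated data.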

Additional observations from a re-analysis of the deposited data

Results flagged for a closer look

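Dixon's ratio was computed over the 4 mice for the named members and family medians measured in all of them, 43 in all, and 1 was above the 95% critical value. In Rbm14, mouse 1 had a log2 ratio of -0.0295 and stood apart from mice 2 to 4, with a gap of 0.882 of the whole range. Chance flags about 1 in 20 such groups.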

How the results depend on the processing

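No member was called in the comparison of mutant with pool, or between mice, under any alternative run, and the members' median stayed above 0, from 0.01 with values read as Cy5 over Cy3 to 0.07 with repeat 2 only. Over all rows, limma called 221 with the mouse as a random block (correlation 0.0355), 12 with values read as Cy5 over Cy3, 3 with the mutant in Cy5 only, 1 with it in Cy3 only, and 0 otherwise. Members called for dye orientation numbered 2 in the report, and 9 with arrays not centred, 4 with arrays centred on the third of all probes that repeated best, 4 with arrays scaled, 8 probes with each probe on its own, 0 with values read as Cy5 over Cy3, and 0 to 10 when a mouse was left out. Of all rows, 17.3%, 11.9%, 10.7%, 8.45% and 1.64% were called for dye in these settings, in that order up to the Cy5 over Cy3 reading. The cause was not tested. With each probe on its own, 11 of 109 probes above 0 (10.1%, beside 5.83% of all rows) and 2 below (1.83%, beside 3.04%) had an unadjusted p under 0.05. With the random block it was 12 of 69 members above 0 (17.4%, beside 8.59%) and 3 below (4.35%, beside 5.55%). At a correlation of 0.0355 that fit treats arrays of 1 mouse as nearly independent, so its p-values rest on arrays more than on mice.

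Of 659 values of the 37 named members under the alternatives, 55 had the opposite sign to the report and 49 moved by over 1 SD. Rbm14, Rbm11, Srsf5, Srsf3, Snrpb, Rbm42, Hnrnpa2b1, Hnrnpll and Hnrnpf kept their sign in all alternatives run, but with values read as Cy5 over Cy3 Srsf5 was at 0.01, Srsf3 at 0.02, Hnrnpll at 0.03, Rbm11 at -0.03, Hnrnpf at 0.04, Rbm14 at -0.05, Hnrnpa2b1 at 0.06, Snrpb at 0.07 and Rbm42 at 0.10. U2af1l4, Srsf6 and Srsf1 changed sign only with values read as Cy5 over Cy3. No paired analysis was possible because the only control is 1 pool on every array, so no numbered controls exist. The spread among wild-type mice, cross-hybridisation between paralogs and the probes' place in the transcripts limit every value.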
